A study of Mus musculus with 57 samples.

Results

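The naive pluripotency transcription factors described here are 8 genes, Nanog, Esrrb, Klf2, Klf4, Tfcp2l1, Zfp42, Prdm14 and Tbx3, taken by symbol from the 56557 genes of the deposited expression table, by a rule that uses no measured value but was set with earlier results of these data known. Each is represented by 1 gene identifier, ENSMUSG00000012396 for Nanog, ENSMUSG00000021255 for Esrrb, ENSMUSG00000055148 for Klf2, ENSMUSG00000003032 for Klf4, ENSMUSG00000026380 for Tfcp2l1, ENSMUSG00000051176 for Zfp42, ENSMUSG00000042414 for Prdm14 and ENSMUSG00000018604 for Tbx3. The data are RNA-seq libraries of 57 single mouse embryos from lines in which Taf5, Taf12 or Taf13, 3 subunits of the general transcription factor TFIID, was targeted. TFIID, which contains the TATA-binding protein, binds core promoters and helps to position RNA polymerase II at the start site. Embryos were wild type (WT), heterozygous (HET) or mutant (MUT). The comparison asks how the genotype in each line bears on gene expression at successive stages of early development.

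In the Taf5 line, blastocysts at embryonic day (E) 3.5 comprised 3 WT and 4 MUT embryos. In the Taf12 line there were 5 WT, 5 HET and 3 MUT blastocysts at E3.5. The same line gave 4 WT, 3 HET and 4 MUT outgrowths (OG), which were E3.5 blastocysts grown singly for 72 h in DMEM with serum. In the Taf13 line there were 4 WT, 4 HET and 3 MUT blastocysts at E3.5 and 4 WT, 9 HET and 2 MUT embryos at E6.5. No treatment was applied, and the labels describe neither the alleles nor the litters, so the p-values below measure the spread between these embryos.

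In the mouse blastocyst the naive state belongs to the inner cell mass and the early epiblast, where these factors bind many of the same enhancers, support each other's expression and hold cells in readiness for every fetal lineage. Nanog and Esrrb form a central pair, Tfcp2l1 and Klf4 respond to LIF through STAT3 in mouse embryonic stem cells, and Tcf7l1 restrains several of them. On implantation the epiblast leaves this state, switches off most of the set and turns on formative genes such as Fgf5 and Otx2. Several members have a second site of expression, since Esrrb is also used by the trophoblast and Tbx3 by the endoderm.

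Because TFIID acts at core promoters, the 60 bases upstream of the annotated starts are shown for the members found in the RefSeq promoter table, with the sequence TATAA in capitals where it begins between bases -40 and -20 on the strand of the gene. The table matched 6 of the 8 members in 8 windows on the build GRCm38.p6, which is not the build of the deposited table, GRCm39. Prdm14 and Tbx3 are named only.
Klf2, chr8:72319002-72319061 (+): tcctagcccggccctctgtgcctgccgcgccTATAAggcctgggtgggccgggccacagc
Klf4, chr4:55532476-55532535 (-): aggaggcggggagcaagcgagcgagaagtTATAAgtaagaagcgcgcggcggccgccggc
Tfcp2l1, chr1:118627885-118627944 (+): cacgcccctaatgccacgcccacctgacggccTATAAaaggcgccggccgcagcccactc
Nanog, start 1, chr6:122707429-122707488 (+): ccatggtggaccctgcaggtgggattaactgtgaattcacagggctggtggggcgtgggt
Nanog, start 2, chr6:122707505-122707564 (+): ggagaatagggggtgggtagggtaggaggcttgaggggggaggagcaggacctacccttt
Esrrb, start 1, chr12:86361057-86361116 (+): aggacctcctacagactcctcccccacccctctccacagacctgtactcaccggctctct
Esrrb, start 2, chr12:86421584-86421643 (+): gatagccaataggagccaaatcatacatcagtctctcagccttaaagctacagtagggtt
Zfp42, chr8:43307010-43307069 (-): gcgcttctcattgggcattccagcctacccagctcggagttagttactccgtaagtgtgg
The letters TATAA began at base -29 of Klf2, -31 of Klf4 and -28 of Tfcp2l1, and were not in the core position of any window of Nanog, Esrrb or Zfp42. Among all 32851 windows of the table, 3.52% held TATAA in that position, and 24.9% held it on either strand anywhere in the 300 bases from 250 before to 50 after the start. The match is a description of these letters and was not tested against expression.

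Expression is given as FPKM, a read count scaled for gene length and library depth, as the authors deposited it, and each line and stage was scaled on its own. A single read was worth between 0.00629 and 0.0316 FPKM for Tfcp2l1 but between 0.495 and 2.49 FPKM for Esrrb, depending on the library, so no level was set against that of another gene. Nanog and Pou5f1 have near-identical pseudogene copies, and how reads shared with them were assigned is not known here. Libraries held 7.82 to 12.1 M reads at E3.5, 4.55 to 12.5 M in outgrowths and 18.5 to 21.6 M at E6.5, as recovered from the steps of the FPKM values. Genotypes were compared with limma on log2(FPKM + 1) within each line and stage, over all genes that reached 1 FPKM in a number of libraries no smaller than the smallest group. A gene was called where its two-sided, Benjamini-Hochberg adjusted p over all genes tested was under 0.05.

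The targeted genes bear on the labels. Taf5 was at 0 in all 4 MUT blastocysts of its line and at 35.7 ± 20.1 FPKM (SD, n = 3) in WT. Taf12 was not lower in the libraries labelled Taf12 MUT, at 62.2 ± 5.60 FPKM (n = 3) against 44.6 ± 6.64 (n = 5) at E3.5 and 52.9 ± 0.820 (n = 4) against 23.2 ± 3.70 (n = 4) in outgrowths. Taf13 stood at 34.3 and 27.1 FPKM in the 2 E6.5 libraries labelled MUT, within the WT range, and at 24.4 ± 10.0 (n = 3) against 37.5 ± 8.64 (n = 4) at E3.5. The transcript level therefore checks the MUT label in the Taf5 line only. One blastocyst stood apart from its group, Taf12 MUT 1, with 11875 genes above 0 and 3.59% mitochondrial reads, the highest share at that stage in that line. At E6.5 Taf13 MUT 1 had 1.12% mitochondrial reads, against 0.0991% to 0.529% in the 13 WT and HET embryos and 0.380% in MUT 2.

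**Figure D1:**
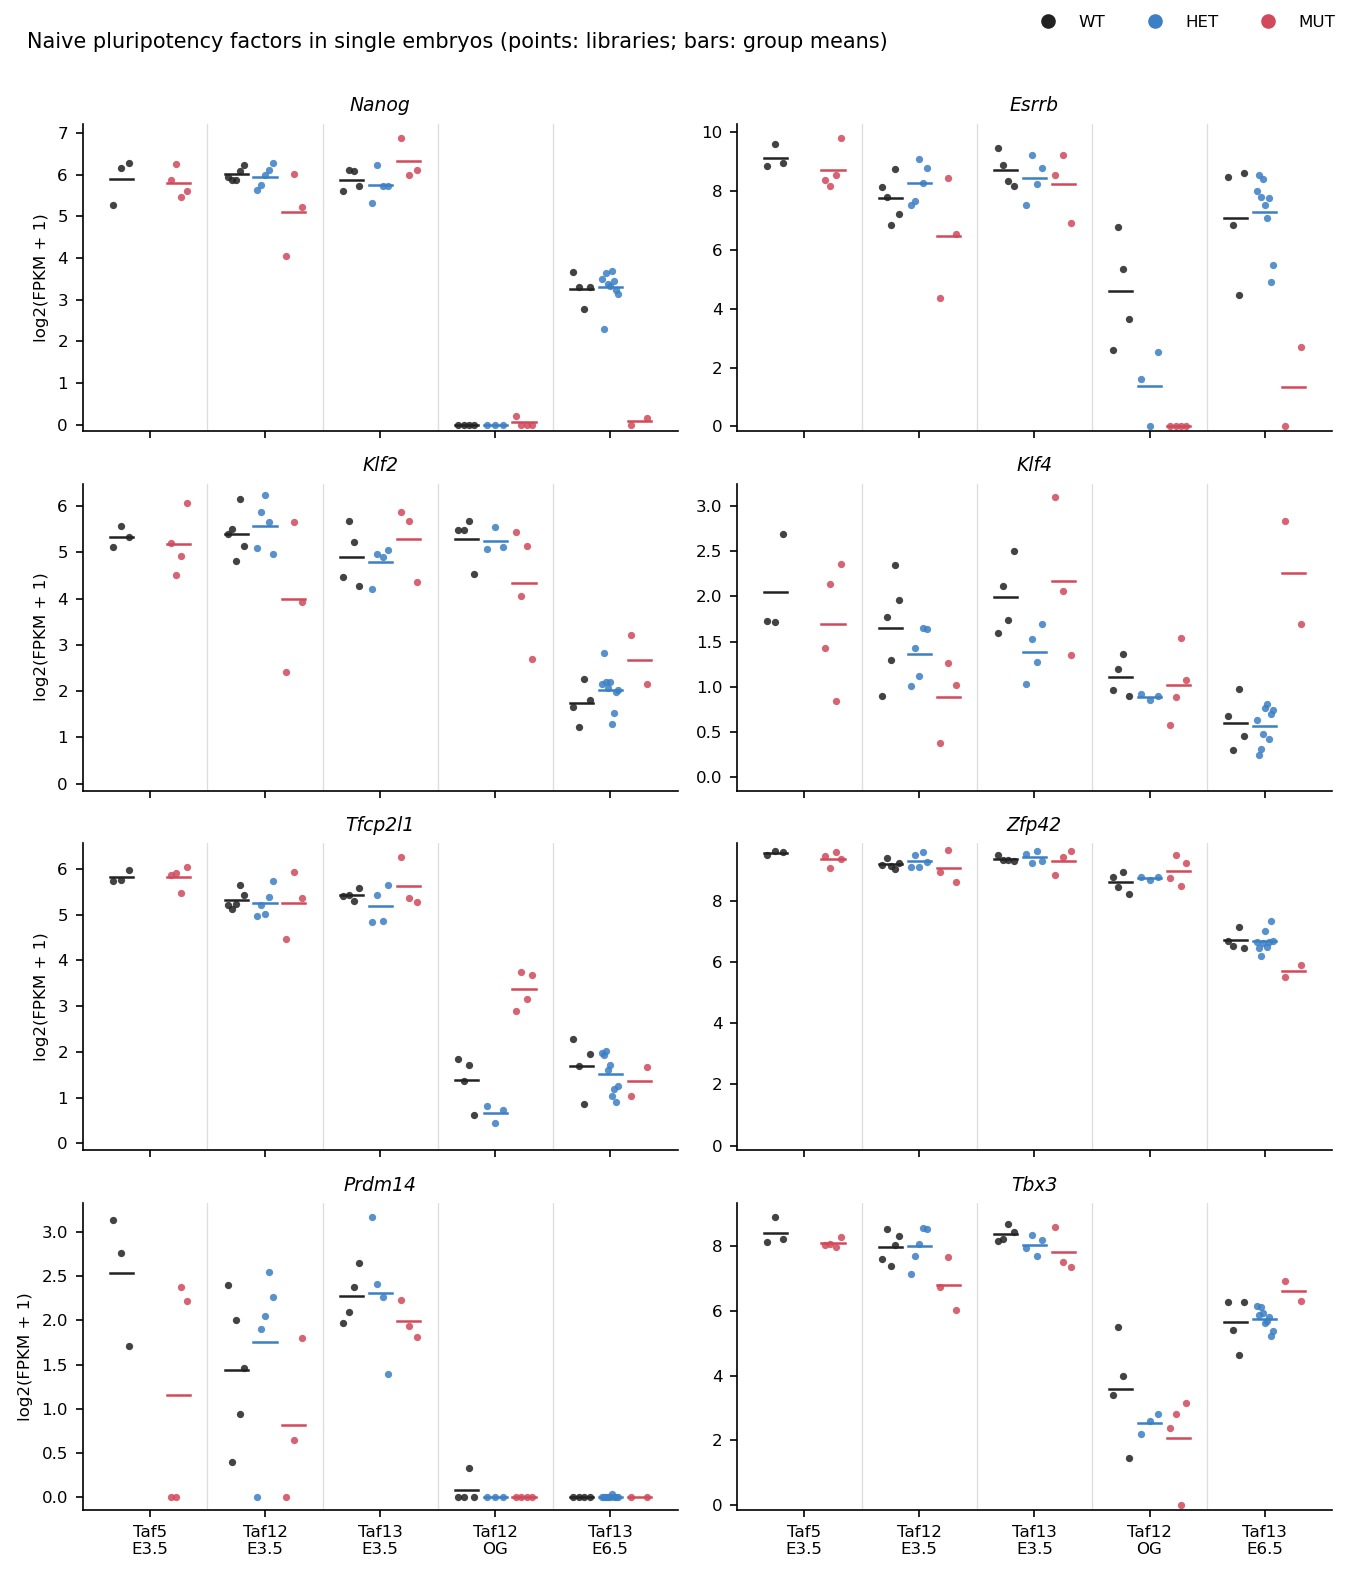
Level of each of the 8 factors in every library, as log2(FPKM + 1) on the vertical axis, by line and stage on the horizontal axis (points, single embryos in black for WT, blue for HET and red for MUT; bars, group means). Genotypes overlap in all 3 E3.5 sets, whereas Tfcp2l1 separates the MUT outgrowths. Nanog, Esrrb, Klf4, Zfp42 and Tbx3 separate the 2 MUT embryos at E6.5, where Tbx3 was not called. The share of all genes that separate the same embryos was not counted.

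At the blastocyst stage no factor was called in any line. All of them but Prdm14 had reads in every blastocyst of every genotype. In the Taf5 line 0 of 8 were called in MUT embryos, where 0.111% of the 10843 genes tested were called and 882 genes had an unadjusted p under 0.05. In the Taf13 line 0 of 8 were called in MUT embryos, against 0.134% of 11975 genes, and 0 of 8 in HET, against 0% of genes. In the Taf12 line 0 of 8 were called in MUT embryos, against 1.44% of 12751 genes, and 0 of 8 in HET, against 0%.

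Nanog, the homeobox factor that gates entry to the naive state, stood at 38, 70.5 and 76.7 FPKM in the Taf5 WT blastocysts and at 58.1, 75.6, 43.1 and 48 in the MUT ones. The ranges overlapped, with a log2 fold change of -0.10 ± 0.32 (SE, adjusted p = 0.957). In the Taf13 line Nanog was at 48.1, 68.0, 66.8 and 52.4 FPKM in WT and at 117, 62.5 and 68.7 in MUT. MUT 1 was the highest of the 11 blastocysts of that line. The difference between MUT and WT, 0.44 ± 0.28 on the log2 scale, was not called (adjusted p = 0.660).

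In the Taf12 line Nanog was at 61.2, 58, 58.1, 67.3 and 74 FPKM in WT and at 15.5, 64.3 and 36.1 in MUT. MUT 1 and MUT 3 lay below every WT blastocyst and MUT 2 within their range. The log2 fold change was -0.91 ± 0.34 (adjusted p = 0.211). Klf2, a Krüppel-like zinc finger factor that helps to sustain self-renewal, had the same arrangement, at 41.4, 44.2, 27.2, 69.7 and 34 FPKM in WT and 4.37, 49.1 and 14.2 in MUT, with a log2 fold change of -1.40 ± 0.57 (adjusted p = 0.251). Without MUT 2, the count of members called rose to 2, Nanog at -1.38 (adjusted p = 0.0465) and Klf2 at -2.23 (adjusted p = 0.0442), so the call turned on that embryo.

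Tbx3, a T-box factor linked to LIF and PI3K signalling in stem cells, was at 195, 374, 168, 262 and 319 FPKM in Taf12 WT and at 106, 205 and 64.7 in MUT (log2 fold change -1.16 ± 0.41, adjusted p = 0.184). MUT 1 and MUT 3 were again under every WT value. In the authors' deposited table, which set the MUT embryos against WT and HET together, Tbx3 had a log2 fold change of -1.10 with an adjusted p of 0.0274 in this set. Esrrb, an orphan nuclear receptor and partner of Nanog, ranged from 115 to 436 FPKM in WT and stood at 19.9, 347 and 93.2 in MUT, where 19.9 FPKM was 14 reads. The 3 MUT embryos did not move as 1 group. MUT 1 held the lowest value of the 13 blastocysts of its line for 5 factors, Nanog, Esrrb, Klf2, Klf4 and Tfcp2l1, and is also the library with the fewest genes detected. The part of its RNA quality in those values was not tested.

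All 8 estimates were negative in Taf12 MUT blastocysts, with a median log2 fold change of -0.84 against -0.08 over all genes tested. They were also all negative in the Taf5 line, with a median of -0.27 against -0.04, and were 4 positive and 4 negative in the Taf13 line, with a median of 0.06 against -0.05. Adjusted p-values ran from 0.184 to 0.927 in the Taf12 line, from 0.704 to 0.996 in the Taf5 line and from 0.600 to 0.944 in the Taf13 line. Differences between the effects in separate lines were tested directly and no member was called, against 0.0147% of genes for Taf12 less Taf5, 0.0359% for Taf12 less Taf13 and 0.00768% for Taf13 less Taf5. The unadjusted p was under 0.05 for 1027, 1284 and 800 genes in these tests. The 2, 5 and 1 genes called became 18 and 26 without Taf12 MUT 2 and 7 without Taf5 WT 3. Of the other lists at this stage, 2 of 7 naive-state markers and 1 of 6 visceral endoderm markers fell in Taf12 MUT, and 1 of 9 primitive endoderm markers fell in Taf13 MUT. No gene of the remaining lists was called in MUT blastocysts of any line.

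Prdm14, a PR-domain factor that represses differentiation genes and later marks germ cells, was the only member with blastocysts at 0. It had no reads in 2 of 4 Taf5 MUT, 1 of 5 Taf12 HET and 1 of 3 Taf12 MUT blastocysts. The Taf5 WT embryos were at 7.82, 5.82 and 2.26 FPKM and the MUT embryos at 0, 0, 4.21 and 3.65. The groups overlapped, and the log2 fold change of -1.39 ± 0.79 was not called (adjusted p = 0.704). Zfp42, also known as Rex1 and widely used as a reporter of the naive state, was the steadiest of the set, between 520 and 789 FPKM in all WT blastocysts and between 389 and 813 in all MUT ones. Tfcp2l1, a grainyhead-family factor, ranged from 33.8 to 62.4 FPKM in WT and from 21.1 to 76.2 in MUT. Klf4 was at 0.858 to 5.46 FPKM in WT and 0.298 to 7.61 in MUT, so its differences were read from low values.

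**Figure D2:**
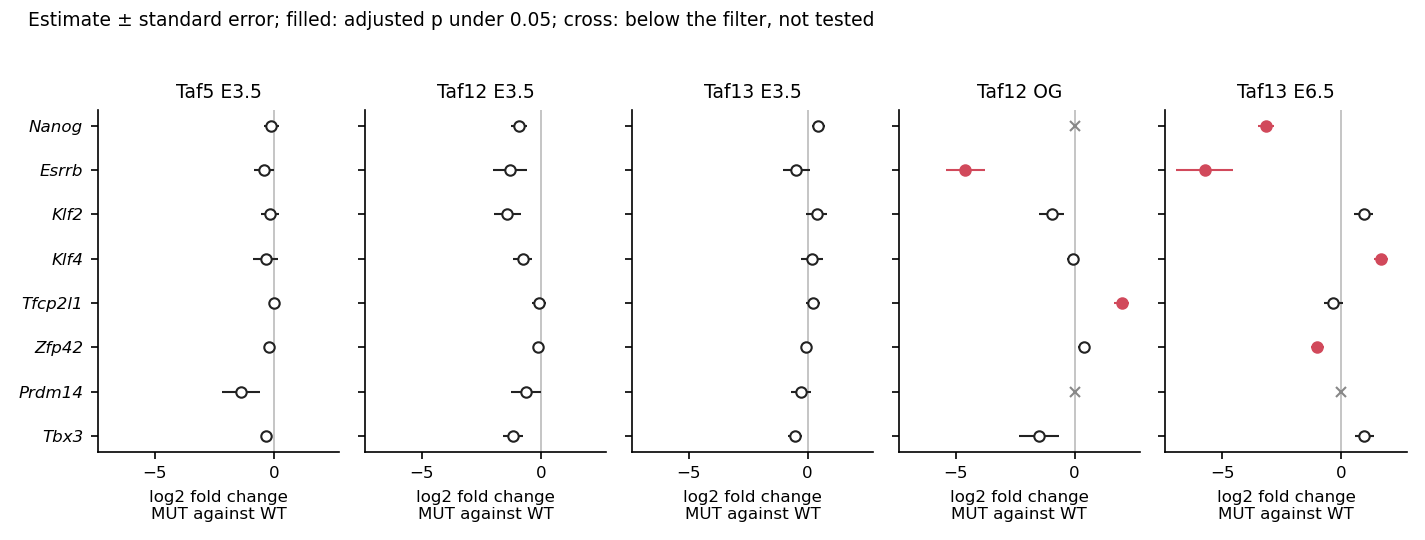
Log2 fold change of MUT against WT on the log2(FPKM + 1) scale (horizontal axes) for the 8 factors (rows) in the 5 line and stage sets (panels), with bars of 1 standard error. Filled red circles are adjusted p under 0.05, open circles are not called and crosses are members below the filter; the filled circles are Esrrb and Tfcp2l1 in Taf12 outgrowths and Nanog, Esrrb, Klf4 and Zfp42 at E6.5 in the Taf13 line.

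The factors differed in how far they fell between stages in WT embryos. Sets of different stages were put on 1 scale with joint median-of-ratios factors, and stage and processing set cannot be told apart. In outgrowths of the Taf12 line 5 of the 7 members tested were lower than in WT blastocysts and none was higher, where 46.9% of genes were called and 20.3% were called lower. At E6.5 in the Taf13 line 7 of 8 were lower and none higher, where 44% of genes were called and 17.3% were called lower. The median log2 difference of the members was -3.05 in outgrowths, against 0.16 over all genes, and -2.49 at E6.5, against 0.23. In whole embryos fewer cells of a type and less RNA per cell cannot be told apart.

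Nanog had no reads in any of the 4 WT outgrowths, against a rescaled 55.8 to 71.2 FPKM in the 5 WT blastocysts. It was at least 965-fold lower, taking 3 reads per library as the floor (log2 difference -5.95 ± 0.18, adjusted p = 1.43e-08). At E6.5 Nanog persisted at 6.33 to 12.4 FPKM against 45.8 to 64.1, a 5.97-fold fall (-2.47 ± 0.25, adjusted p = 7.11e-05). This is the stage when Nanog is known from the posterior epiblast.

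Tfcp2l1 fell 20.8-fold in outgrowths, to 0.564 to 2.73 FPKM from 32.8 to 46.9 (-3.85 ± 0.28, adjusted p = 5.04e-06). At E6.5 it fell 15.5-fold, to 0.899 to 4.08 FPKM from 35.9 to 44.9 (-3.60 ± 0.32, adjusted p = 3.83e-05). Groups did not overlap at either stage. Tbx3 fell 13.8-fold in outgrowths (-4.28 ± 0.68, adjusted p = 0.000707) and 5.49-fold at E6.5 (-2.56 ± 0.36, adjusted p = 0.000507), again without overlap.

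Klf2 separated the stages. In outgrowths it stood at 41.9 ± 12.4 FPKM (SD, n = 4), next to 41.7 ± 15.4 in blastocysts (n = 5), with a log2 difference of 0.02 ± 0.31 (adjusted p = 0.969). At E6.5 it fell 11.4-fold, to 2.60 ± 1.11 FPKM (n = 4) from 29.7 ± 13.7 (n = 4), without overlap (-3.04 ± 0.38, adjusted p = 0.000254). Zfp42 followed the same order, at 319 to 511 FPKM in outgrowths against 498 to 658 in blastocysts (-0.47 ± 0.16, adjusted p = 0.0354) and at 90.5 to 154 at E6.5 against 593 to 694 (-2.50 ± 0.20, adjusted p = 1.86e-05). The small change in outgrowths passed in 9 of 16 alternative analyses, and the call was lost without WT blastocyst 2 or 5 or WT outgrowth 2 or 4.

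Esrrb fell 5.35-fold in outgrowths, to 43.1 ± 49.6 FPKM (n = 4) from 231 ± 121 (n = 5), with overlap between the groups (-3.05 ± 0.78, adjusted p = 0.00996). At E6.5 it was at 22.7 to 415 FPKM against 274 to 671, and the difference of -1.46 ± 0.84 was not called (adjusted p = 0.196). Esrrb was the 1 member not called at E6.5, and its WT embryos were widely spread. Klf4 fell at E6.5 (-1.30 ± 0.28, adjusted p = 0.00479), from low levels, and was not called in outgrowths (-0.48 ± 0.31, adjusted p = 0.237). Prdm14 had no reads in any WT embryo at E6.5 and was at least 66.3-fold lower than in blastocysts (-2.21 ± 0.21, adjusted p = 4.89e-05). In WT outgrowths it had 8 reads in 1 library and none in the other 3, and it did not pass the filter.

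**Figure D3:**
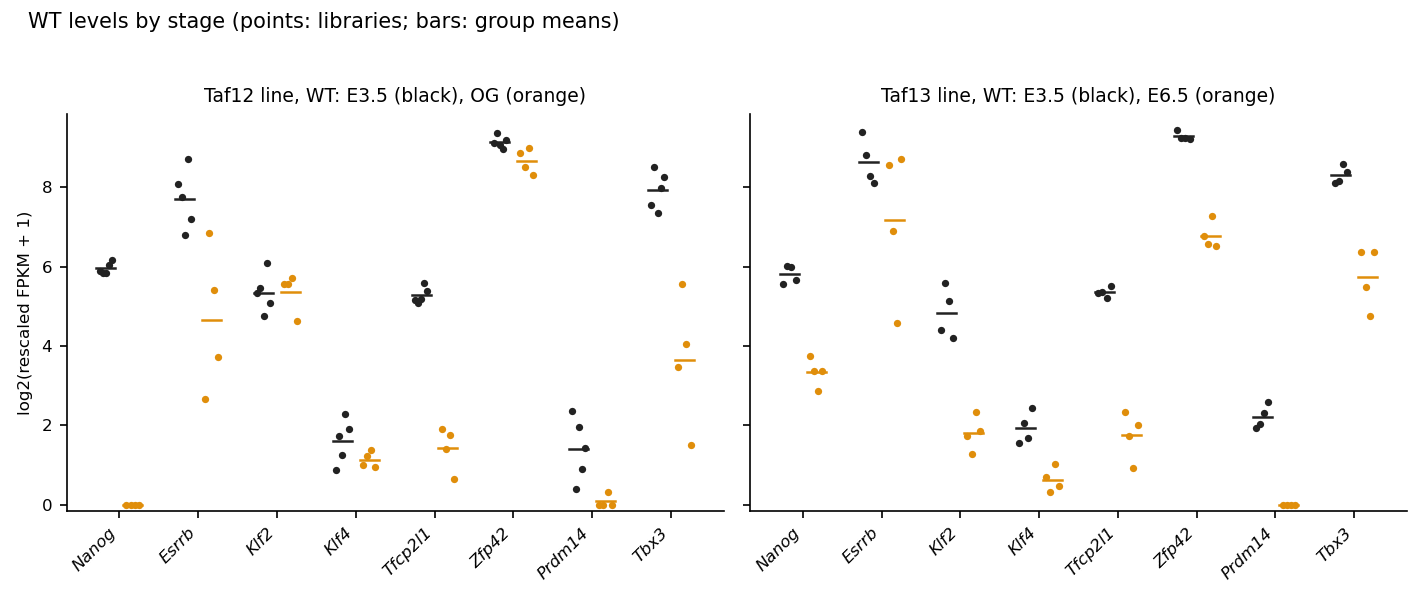
WT level of each factor as log2(rescaled FPKM + 1) on the vertical axis, with the genes on the horizontal axis (points, single embryos; bars, group means). Left, Taf12 line at E3.5 (black) and in outgrowths (orange); right, Taf13 line at E3.5 (black) and E6.5 (orange). Klf2 is level in outgrowths and lower at E6.5, while Nanog is at 0 in outgrowths and retained in part at E6.5.

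The other genes of the network moved with the stages in these WT embryos. Of the core factors, Pou5f1, which encodes OCT4, fell in outgrowths (-8.34 on the log2 scale) and at E6.5 (-1.99), and Sall4 fell in outgrowths (-0.72). Of 7 naive-state markers tested, 6 fell in outgrowths and 5 fell and 1 rose at E6.5, with Dppa3, which protects maternal methylation in the zygote, at -11.05 and -9.37. Of the formative epiblast genes, 7 of 7 tested rose at E6.5, led by Fgf5 at 7.66, and in outgrowths 2 rose and 1 fell of 5. Of 5 other naive network factors tested, 1 rose and 2 fell in outgrowths, and 2 rose and 3 fell at E6.5. Tcf7l1, the repressor that opposes several members, rose by 5.00 in outgrowths and by 2.60 at E6.5. Nr5a2 fell at both stages (-4.14 and -3.82), as did Klf5 (-2.78 and -3.95), and Nr0b1 rose at E6.5 (2.34). For the LIF pathway 4 of 6 genes fell at E6.5, among them Stat3 at -2.62 and Socs3 at -3.52, whereas in outgrowths 3 rose and 1 fell, with Lifr, which encodes the LIF receptor, at 5.19. Markers of other tissues moved as well: 7 of 13 trophectoderm and extraembryonic ectoderm markers rose and 3 fell in outgrowths, against 2 and 9 at E6.5, and 4 visceral endoderm markers rose and 2 fell of 7 in outgrowths, against 8 and 1 of 9 at E6.5. Of 11 primitive endoderm markers 6 rose and 3 fell in outgrowths, and 6 rose and 1 fell at E6.5. Maternal decidua markers rose in 4 of 4 cases at E6.5, among them Prl8a2 (8.67) and Hoxa10 (4.86). In outgrowths Des (2.38) was the 1 gene of that list tested, and it rose. Outgrowths were grown singly in culture, so Des is not read as maternal tissue there. The 1 blood gene tested at E6.5, Hbb-bs, rose (4.79), and the germ cell list had 1 of 2 genes higher at E6.5 and 0 of 1 called in outgrowths. The part of these tissues in the stage differences of the members was not tested.

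In Taf12 outgrowths 2 members were called in MUT and they moved in opposite directions. Tfcp2l1 rose and Esrrb fell, out of 6 members that passed the filter, in a comparison in which 37.9% of the 13068 genes tested were called, 18% higher and 19.9% lower. The share of members called, 2 of 6, lies near that background. No member was called in HET, where 0.0306% of genes were called and 571 had an unadjusted p under 0.05.

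Tfcp2l1 was at 2.58, 1.58, 2.30 and 0.530 FPKM in WT outgrowths, at 0.776, 0.372 and 0.660 in HET and at 6.45, 12.4, 7.88 and 11.8 in MUT. Every MUT outgrowth lay above every WT and HET one, and the HET values overlapped the lowest WT one. MUT was 5.50-fold higher than WT, a log2 fold change of 1.98 ± 0.32 (adjusted p = 0.000847), and the gene was called in 15 of 15 alternative analyses. The level in MUT outgrowths, 9.62 ± 2.90 FPKM (SD, n = 4), was still below the 33.8 to 49.0 FPKM of WT blastocysts of the line in the deposited scale. In the authors' deposited table Tfcp2l1 had a log2 fold change of 2.94 here (adjusted p = 6.65e-09).

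The effect of the MUT genotype on Tfcp2l1 differed between stages. In Taf12 blastocysts its log2 fold change was -0.07 ± 0.30 (adjusted p = 0.927), and the difference between the outgrowth and blastocyst effects was 2.05 ± 0.44 (adjusted p = 0.00447). It was the 1 member of 8 called in that test, where 11% of genes were called, so the count lies near that background.

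Esrrb was at 5.01, 109, 40.1 and 11.5 FPKM in WT outgrowths and had no reads in any of the 4 MUT outgrowths. HET outgrowths stood at 2.07, 0 and 4.81 FPKM, or 2, 0 and 5 reads, below every WT value. The MUT level was at least 9.78-fold lower than WT with 3 reads per library as the floor, and the fitted log2 fold change was -4.59 ± 0.82 (adjusted p = 0.00168, called in 15 of 15 alternatives). The HET difference of -3.21 ± 0.89 was not called (adjusted p = 0.747). The lowest WT library, WT 1, had 5 reads, so that a single outgrowth without reads is not far from a WT one at this depth. The difference in effect from E3.5 was -3.30 ± 1.15 for Esrrb, with an adjusted p of 0.0704.

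The remaining members were not called in MUT outgrowths. Klf2 was at 43.8, 43.98, 49.99 and 22.2 FPKM in WT and at 42.7, 15.6, 34 and 5.44 in MUT, where MUT 2 and MUT 4 lay below all WT values (-0.97 ± 0.53, adjusted p = 0.173). Tbx3 was at 9.53, 44.5, 15 and 1.75 FPKM in WT, at 3.6, 5.02 and 6.07 in HET and at 4.2, 6.02, 0 and 7.98 in MUT (-1.50 ± 0.85, adjusted p = 0.190). WT 4 was the only WT outgrowth within the MUT range, and without it Tbx3 was called at -2.21 (adjusted p = 0.0479). Zfp42 remained abundant, at 436, 349, 495 and 299 FPKM in WT and 426, 714, 357 and 599 in MUT (0.38 ± 0.22, adjusted p = 0.203). Klf4 was at 0.860 to 1.57 FPKM in WT and 0.490 to 1.90 in MUT (-0.08 ± 0.25, adjusted p = 0.823).

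Nanog and Prdm14 were below the filter in outgrowths. Nanog had 7 reads in MUT 1, 0.149 FPKM, and none in the other 10 outgrowths, and Prdm14 had 8 reads in WT 3, 0.251 FPKM, and none elsewhere. A count of 0 allows up to 3 reads per library, so low expression in the others was not detectable at this depth. Pou5f1 was at 0.859, 37.7, 8.82 and 0 FPKM in WT outgrowths and at 0, 45.3, 4.28 and 27.6 in MUT, with overlap and no call (adjusted p = 0.666).

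Beside the members, the other genes of the pathway split in the MUT outgrowths. Of 4 naive-state markers tested, Dppa5a (3.32 on the log2 scale), Dppa3 (3.85) and Fbxo15 (4.19) rose, while Tdh, a threonine dehydrogenase of mouse pluripotent cells, fell (-2.25). Dppa5a stood at 283 to 1444 FPKM in WT and 4934 to 12136 in MUT. Of 4 other naive network factors, 3 fell, namely Mybl2 (-3.43), Gbx2 (-1.198) and Tcf7l1 (-0.83), and Klf5 stood at 1.54 (adjusted p = 0.0677). Lifr fell (-4.64) and Jak1 rose (0.65) among 6 LIF pathway genes, with Lifr at 50.3 to 241 FPKM in WT and 1.16 to 7.67 in MUT. Formative genes fell in 3 of 5 cases, Utf1 (-2.15), Dnmt3a (-1.64) and Fgf5 (-1.94), and neither of the 2 core factors tested was called.

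Markers of other cell types moved with these changes. Of 13 trophectoderm and extraembryonic ectoderm markers, 7 rose and 1 fell in MUT outgrowths, with the summed level at 33390 to 45800 FPKM in MUT against 11800 to 17310 in WT. The keratins Krt8 (2.37) and Krt18 (2.11) rose, as did Fgfr2 (2.11), and Tead4 fell (-1.07). In the summed level, genes with high FPKM count most. The median log2 fold change of the list was 0.61 against -0.05 over all genes tested. Of 10 primitive endoderm markers 5 fell and of 7 visceral endoderm markers 6 fell, with the visceral sum at 7.41 to 37.8 FPKM in MUT and 251 to 1308 in WT. The median of the visceral list was -4.31, with Ttr at -4.41 and Apoe at -4.51. Of its 9 genes, 1 to 5 were at 0 in a MUT outgrowth and 0 to 1 in a WT one. Library measures moved with genotype too. Mitochondrial reads were 1.45% to 2.17% in MUT outgrowths and 0.951% to 1.33% in WT, and genes above 0 numbered 14640 to 17018 in MUT and 17443 to 18634 in WT. MUT 3 was the shallowest, at 4.55 M reads. The part of these markers and library measures in the changes of Tfcp2l1 and Esrrb was not tested.

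At E6.5 in the Taf13 line 4 of the 7 members tested were called in the 2 MUT embryos. Nanog, Esrrb and Zfp42 fell and Klf4 rose, where 13% of the 14417 genes tested were called, 6.64% higher and 6.4% lower. No member was called in the 9 HET embryos, where 0% of genes were called and 174 had an unadjusted p under 0.05. The MUT group holds 2 embryos, and without MUT 1, the embryo with the highest share of mitochondrial reads, only Nanog kept its call. The part of RNA quality in these calls was not tested.

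Nanog was at 11.8, 8.94, 5.85 and 8.88 FPKM in WT, between 3.87 and 11.9 with a median of 9.36 in HET, and at 0 and 0.117 in MUT, the latter from 12 reads against 500 to 1149 in WT. Both MUT embryos lay far below all 13 others. The fold was 151 (log2 fold change -3.19 ± 0.34, adjusted p = 4.46e-05), and the gene was called in 13 of 13 alternatives. Pou5f1, the core factor of the epiblast, gave the same picture, at 333, 531, 240 and 361 FPKM in WT and without reads in either MUT embryo (-8.46, adjusted p = 1.72e-08). In the authors' deposited table Nanog had a log2 fold change of -7.27 here (adjusted p = 1.37e-37).

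Esrrb was at 355, 114, 21 and 397 FPKM in WT, between 29 and 372 with a median of 217 in HET, and at 0 and 5.51 in MUT, the latter from 11 reads. The groups did not overlap, although WT 3, with 35 reads, came close. The fold was 80.5 (-5.75 ± 1.19, adjusted p = 0.00602). The call was lost with the test on recovered reads (adjusted p = 0.158) and without MUT 1 (adjusted p = 0.138). Esrrb was called in 10 of 13 alternatives. In the authors' deposited table the log2 fold change was -6.24 (adjusted p = 3.27e-09).

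Zfp42 was at 102, 90.3, 142 and 86.7 FPKM in WT, between 71.7 and 160 with a median of 99.0 in HET, and at 44.4 and 58.2 in MUT. Both MUT embryos lay below all others, 2.05-fold under WT (-1.01 ± 0.28, adjusted p = 0.0268). This was the smallest of the called changes, and it was not called without MUT 1 (adjusted p = 0.275) or with no filter on low values (adjusted p = 0.0569). Zfp42 was called in 10 of 13 alternatives, and it was still detected in both embryos in which Nanog and Pou5f1 were at or near 0.

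Klf4, the Krüppel-like factor used with OCT4 in reprogramming and also known from epithelia, was at 0.598, 0.233, 0.970 and 0.365 FPKM in WT, between 0.188 and 0.745 with a median of 0.547 in HET, and at 6.11 and 2.23 in MUT. These MUT values came from 823 and 297 reads, against 27 to 108 reads in WT, and lay above all 13 others. The fold was 7.70 (1.66 ± 0.31, adjusted p = 0.00287), and the call was lost without MUT 1 (adjusted p = 0.0732). Klf4 was called in 11 of 13 alternatives. The authors' deposited table gave 3.04 (adjusted p = 3.06e-07).

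Klf2, Tbx3 and Tfcp2l1 were not called. Tbx3 was at 76.7, 42.1, 24.1 and 77.7 FPKM in WT, 36.8 to 71.2 in HET and 122 and 79.1 in MUT, so that both MUT embryos were the highest of the 15 (0.97 ± 0.40, adjusted p = 0.119). In the authors' deposited table Tbx3 had a log2 fold change of 0.87 with an adjusted p of 0.0447. Klf2 was at 2.17, 1.35, 3.77 and 2.51 FPKM in WT and 8.24 and 3.42 in MUT, with overlap (0.93 ± 0.40, adjusted p = 0.133). Tfcp2l1 was at 3.86, 2.23, 0.830 and 2.91 FPKM in WT and 1.06 and 2.20 in MUT (-0.34 ± 0.41, adjusted p = 0.617), unlike its rise in the Taf12 outgrowths. Prdm14 was without reads apart from 1 read in HET 6.

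The E6.5 effect was tested against the E3.5 effect of the same line. It differed for Nanog, by -3.63 ± 0.45 on the log2 scale (adjusted p = 3.39e-05), and for Esrrb, by -5.28 ± 1.40 (adjusted p = 0.0327), 2 of 8 members where 4.45% of genes were called. Those 722 genes became 314 without MUT 1 at E6.5. The Esrrb difference was not called without any 1 of 7 embryos, namely WT 4, MUT 1 or MUT 2 at E3.5 and WT 1, WT 2, WT 4 or MUT 1 at E6.5, where its adjusted p ran from 0.0503 to 0.296. Klf4 (1.47 ± 0.50, adjusted p = 0.0972) and Tbx3 (1.51 ± 0.51, adjusted p = 0.0946) missed the threshold.

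Among the other lists, Pou5f1 fell, as did Tdgf1 (-10.46) and Fgf4 (-4.16) among 6 naive-state markers and Nr0b1 (-2.32) among 4 other network factors, of which Klf5 rose (1.21). Formative genes fell in 4 of 8 cases, Otx2 (-5.52), Fgf5 (-6.33), Utf1 (-3.23) and Dnmt3b (-3.03). Of 3 germ cell genes Dnd1 fell (-3.32). Il6st, the shared receptor chain of the LIF family, rose (1.10) and was the 1 of 5 LIF pathway genes called. Of 13 trophectoderm and extraembryonic ectoderm markers 3 fell, Id2 (-2.15), Eomes (-2.66) and Elf5 (-2.13), and 1 rose, Gata2 (1.68). Primitive endoderm markers rose in 5 of 11 cases, among them Pdgfra (2.34) and Lama1 (2.91), and visceral endoderm markers in 2 of 9.

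Markers of maternal tissue differed between genotypes, while their summed levels overlapped. Of 7 decidua markers tested 5 rose in MUT, among them Pgr, the progesterone receptor (2.23), and Hoxa10 (4.59), and the summed FPKM of the 8 listed genes was 2249 and 4926 in MUT against 134, 407, 4643 and 137 in WT and 33.2 to 2635 in HET. No decidua marker was at 0 in the MUT embryos, and up to 3 were at 0 in a HET embryo. None of 3 blood genes tested was called, with a sum of 244 and 504 FPKM in MUT, 3.92 to 220 in WT and 0.230 to 279 in HET, so that MUT overlapped HET. The levels of 3 control embryos with high decidua sums are listed beside those of MUT. In WT 3, HET 8 and HET 9, with decidua sums of 4643, 2635 and 1157, Nanog was at 5.85, 8.43 and 7.78 FPKM, against 0 and 0.117 in MUT. Zfp42 was at 142, 160 and 103 FPKM in those embryos and 44.4 and 58.2 in MUT, and Klf4 at 0.970, 0.625 and 0.677 against 6.11 and 2.23. Esrrb was at 21, 29 and 44 FPKM in the same 3 embryos, its lowest values among the controls, against 0 and 5.51 in MUT. By the mean log2(FPKM + 1) of the decidua markers, WT 3 and HET 8 were at 4.95 and 4.80. On that measure HET 9, at 2.76, was below HET 7, at 3.12. The part of decidua in the results was not tested.

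**Figure D4:**
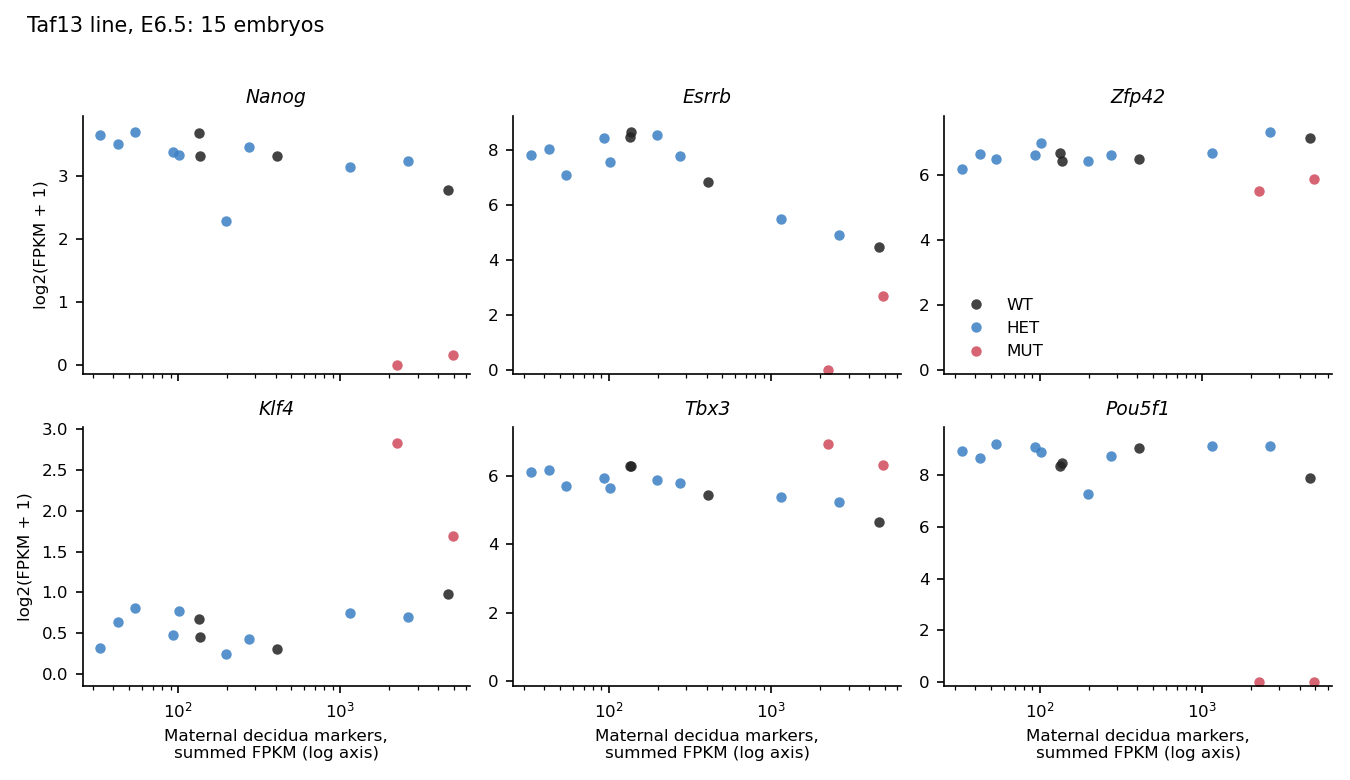
Nanog, Esrrb, Zfp42, Klf4, Tbx3 and Pou5f1 as log2(FPKM + 1) (vertical axes) against the summed FPKM of 8 decidua markers (horizontal axes, log scale) in the 15 E6.5 embryos of the Taf13 line. WT 3 and HET 8 lie in the decidua range of the 2 MUT embryos, and HET 9 lies below it. These 3 controls lie within the range of the other 10 for Nanog and Pou5f1. They have the lowest Esrrb and Tbx3 among controls.

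Among the 13 WT and HET embryos at E6.5 some members varied with the markers of other tissues. These relations were looked at after the embryo values had been seen, as 21 pairs of 7 members and 3 marker lists. Esrrb followed the mean level of the 13 trophectoderm and extraembryonic ectoderm markers, with Pearson's r of 0.874 (permutation p = 3e-05, adjusted p = 0.00063) and Spearman's rho of 0.901 (permutation p = 8e-05, adjusted p = 0.00168). The r was 0.866 without the 2 embryos farthest from the median and 0.921 in the 9 HET embryos alone. Tfcp2l1 gave an r of 0.822 (permutation p = 0.00054, adjusted p = 0.00362) and a rho of 0.841 (permutation p = 0.00078, adjusted p = 0.00409), with 0.827 without the 2 farthest. Tbx3 gave an r of 0.729 (permutation p = 0.00456, adjusted p = 0.00958) and a rho of 0.846 (permutation p = 0.00053, adjusted p = 0.00371), with 0.826 without the 2 farthest.

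Nanog showed no such relation over all 13 embryos (r = -0.0966, permutation p = 0.751; rho = 0.275, permutation p = 0.361), although r was 0.656 without the 2 farthest. Against the decidua markers, Tbx3 gave an r of -0.868 (permutation p = 0.0001, adjusted p = 0.00105; rho = -0.852, permutation p = 0.00045, adjusted p = 0.00371) and -0.715 without the 2 farthest embryos. Esrrb gave an r of -0.829 (permutation p = 0.00161, adjusted p = 0.0043; rho = -0.709, permutation p = 0.00884, adjusted p = 0.0232), which moved to -0.422 without the 2 farthest, so that relation rested on those embryos. Zfp42 went the other way with an r of 0.779 (permutation p = 0.00371, adjusted p = 0.00866; rho = 0.533, permutation p = 0.0647, adjusted p = 0.113), which also rested on the 2 farthest, at 0.257 without them. Tfcp2l1 gave an r of -0.766 (permutation p = 0.0009, adjusted p = 0.00378; rho = -0.775, permutation p = 0.00294, adjusted p = 0.0106) and -0.553 without the 2 farthest.

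The same 3 members also followed the mean level of the formative epiblast genes, so the relation to trophectoderm markers was not the only one. Tbx3 gave an r of 0.812 (permutation p = 0.00069, adjusted p = 0.00362; rho = 0.775, permutation p = 0.00303, adjusted p = 0.0106) and 0.59 without the 2 farthest. Tfcp2l1 gave an r of 0.794 (permutation p = 0.00164, adjusted p = 0.0043; rho = 0.736, permutation p = 0.00577, adjusted p = 0.0173) and 0.637 without them. Esrrb gave an r of 0.777 (permutation p = 0.00153, adjusted p = 0.0043; rho = 0.659, permutation p = 0.0172, adjusted p = 0.04) and 0.499 without them. The relations of Klf2, Klf4, Zfp42 and Nanog to the 3 lists, other than that of Zfp42 to decidua, had adjusted p-values of Pearson's r from 0.0832 to 0.967.

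**Figure D5:**
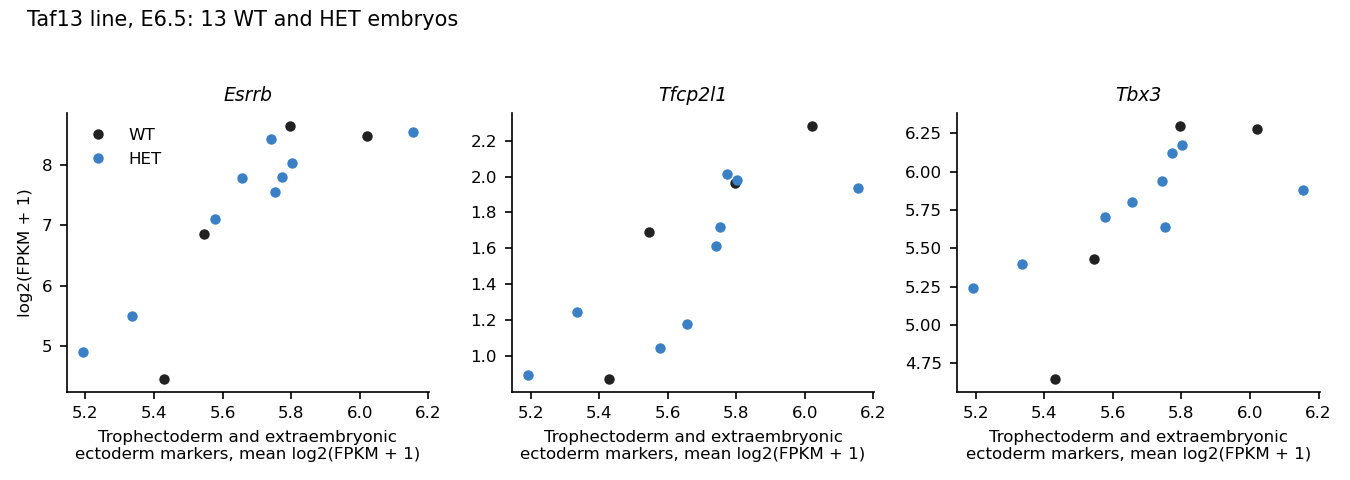
Esrrb, Tfcp2l1 and Tbx3 as log2(FPKM + 1) (vertical axes) against the mean log2(FPKM + 1) of 13 trophectoderm and extraembryonic ectoderm markers (horizontal axes) in the 13 WT (black) and HET (blue) embryos of the Taf13 line at E6.5. All 3 rise with the marker mean, at r = 0.874, 0.822 and 0.729.

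Across the 14 group means of log2(FPKM + 1), the members did not follow 1 profile. Nanog and Esrrb were the closest pair (r = 0.918), followed by Nanog and Tbx3 (0.887) and by Klf2 and Zfp42 (0.882), whereas Klf2 and Tbx3 were at 0.186. The means share stages and lines, so these values describe the set and carry no test. Of 10824 genes compared, the profile nearest to the mean of the members was Tmem45b (r = 0.992), then Mep1b (0.989), Ppm1a (0.987), Inpp5d (0.986) and Cep57l1 (0.985). For single members the nearest other genes were Chga for Nanog (0.989), Tdgf1 for Esrrb (0.961), Adap2 for Klf2 (0.964), Pnpla6 for Klf4 (0.898), Mtf2 for Tfcp2l1 (0.992), Grhl2 for Zfp42 (0.988), Acsbg3 for Prdm14 (0.969) and Efemp1 for Tbx3 (0.976).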

How the data were processed

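Total RNA of single embryos was made into low-input libraries and sequenced in paired ends, per the labels' protocols. The submitters' processing notes name Trimmomatic 0.39, FastQC 0.11.9, STAR 2.7.6a, R 4.2.1, DESeq2 1.36.0 and the build GRCm39. For the counting program, its annotation and its use of strand, nothing is given in the sources used. The authors deposited FPKM per embryo. They also deposited a table of log2 fold changes with standard errors, p-values and mean normalized counts (a score per gene) of MUT against WT, or against WT and HET together in the Taf12 and Taf13 lines.

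From the deposited FPKM, limma 3.58.1 (R 4.3.3) was fitted to log2(FPKM + 1) with trend and robust moderation, all genotypes of a line and stage sharing 1 estimate of the spread. A fold change on this scale understates that of low genes, and folds in the text are ratios of mean FPKM. Genes were tested where they reached 1 FPKM in a number of libraries no smaller than the smallest group. WT stages were compared after joint median-of-ratios scaling, and effects of separate sets by contrasts. The test was also run on simulated counts with 1 spread for all genes and with changes only in genes above a minimum of reads. That run does not cover members with few reads or a wide spread between embryos. The low FPKM values are whole multiples of 1 read per gene and library: of the values worth up to 500 reads, 99.6% lay within 0.05 of a whole read, and 98.9% in the lowest library. These recovered reads gave depths and a voom test as an alternative. Where a group had no reads, folds are bounds with 3 reads per library as the floor, which covers counting error only. Permutation tests used 100000 draws (Python 3.11.15, numpy 2.4.6, scipy 1.17.1) and were two-sided.

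The members and marker lists were chosen with earlier results of these data known. All 8 members are named in every set. Of each list, up to 4 genes with the smallest p were named in comparisons in which a member was called, and likeness was by Pearson's r. Alternatives were a pseudocount of 0.1, no filter, no trend or robust moderation, the voom test, scaling to recovered depth, stages compared without rescaling, WT and HET together as control, the replicate number as a block, and leaving out each library.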

Additional observations from a re-analysis of the deposited data

Results flagged for a closer look

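Of 68 groups of 4 to 10 embryos and members examined, 5 held an embryo far from the rest by Dixon's criterion, which chance gives in about 1 in 20. Esrrb was at 892 FPKM in Taf5 MUT blastocyst 4, where the other 3 stood at 287 to 376. Klf2 was at 6.05 FPKM in Taf13 HET 2 at E6.5, from 166 reads, where the other 8 stood at 1.45 to 3.61. The remaining 3 were genes at 0 in all other embryos of the group, namely Nanog at 0.149 FPKM (7 reads) in Taf12 MUT outgrowth 1, Prdm14 at 0.251 FPKM (8 reads) in Taf12 WT outgrowth 3 and Prdm14 at 0.0187 FPKM (1 read) in Taf13 HET 6 at E6.5.

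The effect of the MUT genotype differed between stages for 3 members by a test of the difference itself. It was 2.05 on the log2 scale for Tfcp2l1 in the Taf12 line, outgrowths less blastocysts (adjusted p = 0.00447). In the Taf13 line, E6.5 less E3.5, it was -3.63 for Nanog (adjusted p = 3.39e-05) and -5.28 for Esrrb (adjusted p = 0.0327). The Taf12 test called 1 of 8 members and 11% of all genes, so that count lies near its background. The Taf13 test called 2 of 8 members and 4.45% of all genes.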

How the results depend on the processing

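Of 121 member differences tested, 21 were called, none of these changed sign under any alternative, and 14 were called under all of them. Of the 100 not called, 42 changed sign under some alternative and 7 were called under one. The count of members called at E6.5 in Taf13 MUT, 4, ran from 1 to 4 when each library was left out, with 1 without MUT 1. In Taf12 MUT blastocysts the count of 0 ran from 0 to 2, with 2 without MUT 2. For the Taf12 effect, outgrowths less blastocysts, the count of 1 was 2 with a pseudocount of 0.1 and ran from 1 to 2 leaving out each library. For the Taf13 effect, E6.5 less E3.5, the count of 2 was 1 with no filter on low values and ran from 1 to 3. The cause was not tested. Over all genes, the count called at E6.5 in Taf13 MUT, 1880, was 3348 with WT and HET together as control and 554 without MUT 1. In Taf12 MUT blastocysts 184 became 441 with that control and 78 without WT 2. At E3.5, 12 genes in the Taf5 line became 0 with the voom test and 21 without trend and robust moderation, and 16 in the Taf13 line became 30 with WT and HET together as control. Leaving out each library gave 3 to 10 genes in the Taf5 line, with 3 without MUT 1, 9 to 26 in Taf13 MUT blastocysts, with 9 without WT 1 and 26 without MUT 2, and 0 to 7 in Taf12 HET outgrowths in place of 4, with 0 without WT 1 and 7 without HET 1.

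The labels do not say whether replicate numbers pair the embryos. In no comparison was every same-numbered correlation above 0.1, and they ran from -0.44 to 0.38 for Taf13 HET at E6.5. Comparisons had 2 to 5 same-numbered pairs, too few to settle the question. The fit with the replicate number as a block kept only embryos of the compared groups whose number occurred in both. HET embryos were therefore left out of the MUT comparisons, and 2 pairs remained at E6.5 in Taf13 MUT. Fewer embryos and the block itself cannot be told apart in its counts. With this block, the count of members called was 1 at E6.5 in Taf13 MUT and 0 for both the Taf12 and the Taf13 stage effects. The adjusted p of the stage effect was then 0.134 for Tfcp2l1, 0.0925 for Nanog and 0.194 for Esrrb. Over all genes the block gave 362 at E6.5 in Taf13 MUT, 0 in the Taf12 and Taf13 MUT blastocysts, 3261 of 4956 in Taf12 MUT outgrowths, and 535 and 2 for the Taf12 and Taf13 stage effects.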
